A study of Mus musculus with 4 samples.

Results

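Mouse mammary glands were compared with and without a Cre that deletes *Lats1* and *Lats2* in luminal cells. In their single cells, 4 genes of peptide hormone and serotonin production, *Cck*, *Calca*, *Tph1* and *Cpe*, were followed. They are 4 of the 28693 genes listed and were chosen from these same data, because *Cck* was almost absent from the epithelium of knockout glands. The difference between knockout and control in *Cck*, *Calca*, *Tph1* and *Cpe* is therefore given as values without a test, whereas their differences between cell lineages were tested.

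The study compared glands of 2 CTL and 2 LATS1/2-KO mice to describe early changes after loss of the LATS kinases, which restrain the coactivators YAP and TAZ. CTL mice were Lats1f/f;Lats2f/f with 1 R26-lsl-EYFP allele and no Cre, so the floxed alleles and the reporter were present in controls too. LATS1/2-KO mice carried Krt8-CreERT2 in addition, with a heterozygous reporter in replicate 1 and a homozygous one in replicate 2. The *Krt8* promoter drives Cre in luminal cells, and the reporter makes EYFP only in cells where Cre has acted. All mice received tamoxifen, 2 mg on each of 5 days, and glands were taken 7 days after the last dose. Mice were adult and nulliparous, 3 to 10 months old at the start in the study as a whole, and each library held live cells sorted from gland pairs 3 to 5 of 1 mouse. Libraries were made with the 10x Genomics 3' chemistry, which counts unique molecular identifiers (UMIs).

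After filtering, CTL replicates 1 and 2 held 4914 and 3515 cells with 46810771 and 42630666 UMIs, and LATS1/2-KO replicates 1 and 2 held 4499 and 5272 cells with 38792520 and 44758376 UMIs. Each cell was assigned to a lineage from its marker genes, none of which is *Cck*, *Calca*, *Tph1* or *Cpe*. Luminal ER- cells, the alveolar or secretory luminal lineage, numbered 2554 and 2009 in CTL and 912 and 1088 in LATS1/2-KO. Luminal ER+ cells, the hormone-sensing lineage, numbered 1288 and 958 in CTL and 483 and 162 in LATS1/2-KO. Basal cells numbered 172 and 151 in CTL and 373 and 447 in LATS1/2-KO. Another 286 and 141 cells in CTL and 1390 and 1076 in LATS1/2-KO were epithelial without a clear lineage. The lineages carried their own markers in every library, and the 9 luminal ER- markers together stood between 18018 and 24077 CPM (UMIs scaled to the same total in every library and class) in luminal ER- cells and at no more than 3431 CPM in luminal ER+ and basal cells. CTL and LATS1/2-KO cells of the same gated lineage fell almost entirely in different graph clusters, with CTL luminal ER- cells in clusters 0 to 3 and LATS1/2-KO luminal ER- cells mostly in clusters 17 and 20. Levels are CPM of the UMIs summed over the cells of a class in 1 library, and their intervals, like those of the shares of cells, are 95% exact intervals that cover counting error only. Pairs of libraries shared 4 to 12 cell barcodes, 43 in all.

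The reporter followed the labels. *EYFP* stood at 0.30 and 0.42 CPM over all kept cells of CTL and at 78.6 and 108 CPM in LATS1/2-KO. Cells with an *EYFP* UMI made up 10.5 and 12.2% of luminal ER- cells, 12.8 and 29.0% of luminal ER+ cells, 6.70 and 10.5% of basal cells and 36.5 and 50.6% of epithelial cells without lineage in the LATS1/2-KO libraries. Most LATS1/2-KO cells gated luminal ER-, luminal ER+ or basal thus held no *EYFP* UMI. LATS1/2-KO therefore names the gland, and not the state of *Lats1* and *Lats2* in each cell. *Lats1* stood at 24.0 and 24.0 CPM in CTL and 17.5 and 18.7 CPM in LATS1/2-KO. *Lats2* stood at 15.3 and 16.1 CPM in CTL and 29.1 and 32.2 CPM in LATS1/2-KO. The 3' tags may lie outside the deleted part of either gene, so neither *Lats1* nor *Lats2* checks the labels.

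*Cck* encodes cholecystokinin, a peptide hormone best known from the gut and brain. *Calca* encodes calcitonin and, by alternative splicing, calcitonin gene-related peptide (CGRP), which gene-level 3' counts do not separate. Peptide hormones are made as longer precursors that are cut by prohormone convertases and trimmed at their ends by carboxypeptidase E, the product of *Cpe*. Tryptophan hydroxylase 1, the product of *Tph1*, carries out the rate-limiting step of serotonin synthesis outside the brain, and serotonin made in the mammary epithelium is known as a local regulator of milk secretion.

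All 4 genes lie on the minus strand of the mouse genome (GRCm38). *Cck* spans chr9:121489824-121495694, *Calca* chr7:114631478-114636357, *Tph1* chr7:46644641-46672537 and *Cpe* chr8:64592542-64693054. The 120 bases upstream of the annotated starts of *Cck*, *Calca* and *Tph1*, from the RefSeq promoter table of build GRCm38.p6, are printed to show the hormone-gene promoters that the levels refer to, with 2 starts for *Tph1*. They read 5′ to 3′ on the minus strand and come from chr9:121495695-121495814 for *Cck*, chr7:114636358-114636477 for *Calca*, and chr7:46672538-46672657 and chr7:46667378-46667497 for *Tph1*. Capitals mark TGACG, the core of the cAMP response element, with its reverse complement CGTCA, and also the E-box CACGTG and CATTCC, the reverse complement of the TEAD motif GGAATG.
Cck: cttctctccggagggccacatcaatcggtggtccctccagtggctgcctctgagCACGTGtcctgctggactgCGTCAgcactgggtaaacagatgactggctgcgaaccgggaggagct
Calca: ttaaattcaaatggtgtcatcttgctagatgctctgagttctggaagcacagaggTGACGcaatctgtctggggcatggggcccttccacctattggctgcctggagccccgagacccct
Tph1 start 1: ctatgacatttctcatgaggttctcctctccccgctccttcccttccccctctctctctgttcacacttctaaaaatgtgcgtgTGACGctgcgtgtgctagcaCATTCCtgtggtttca
Tph1 start 2: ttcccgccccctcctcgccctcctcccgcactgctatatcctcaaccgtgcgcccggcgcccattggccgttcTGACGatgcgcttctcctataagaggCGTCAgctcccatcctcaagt

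Motifs were searched on both strands of the 250 bases upstream of each start. TGACG was present in all 4 windows and in 17.8% of 32851 such windows of the genome. It began 47 bases upstream of the *Cck* start, 65 upstream of the *Calca* start, 36 upstream of the first *Tph1* start and 248, 47 and 21 upstream of the second. The full element TGACGTCA, which contains TGACG, was in none of the 4 windows and in 1.55% of all windows, and the AP-1 motif TGANTCA was in none of the 4 and in 6.75% of all. CACGTG, in 6.02% of all windows, was found 66 bases upstream of the *Cck* start, and GGAATG, in 12.6% of all windows, 16 bases upstream of the first *Tph1* start. TGACG and CACGTG were searched for after the sequences had been seen, and a match is a description of letters, not a site.

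*Cck* was a luminal ER- gene in CTL glands and was close to absent from LATS1/2-KO epithelium. In luminal ER- cells its level was 489 and 650 CPM in CTL replicates 1 and 2 and 1.95 and 1.60 CPM in LATS1/2-KO replicates 1 and 2, from 11773 and 13669 UMIs against 16 and 18. The CTL mean of 570 ± 114 CPM (SD, n = 2) was 320 times the LATS1/2-KO mean of 1.78 ± 0.24 CPM, and the ratio of the pooled counts was 322 (231 to 465). The groups were far apart, and the closest pair of mice differed 251-fold.

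Both the share of cells with the transcript and the UMIs per positive cell were lower in LATS1/2-KO. A *Cck* UMI was found in 73.8% (72.0 to 75.5) and 78.3% (76.5 to 80.1) of luminal ER- cells in CTL and in 1.10% (0.527 to 2.01) and 0.827% (0.379 to 1.56) in LATS1/2-KO. The positive cells held 6.25 and 8.68 *Cck* UMIs on average in CTL and 1.6 and 2 in LATS1/2-KO. With every cell thinned to 2000 UMIs, the shares were 48.2 and 53.7% in CTL and 0.336 and 0.283% in LATS1/2-KO. Median depth differed little: the median luminal ER- cell had 7380 and 8328 UMIs in CTL replicates 1 and 2 against 7318 and 8352 in the knockouts. In CTL the transcript was spread widely: the median cell stood at 296 and 411 CPM, the top 10% of cells held 43.5 and 40.2% of all *Cck* UMIs, and the highest cell held 115 and 88 UMIs. In LATS1/2-KO the 16 and 18 UMIs came from 10 and 9 cells, of which the highest held 5 and 9 UMIs.

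In the other epithelial classes *Cck* was lower in CTL and again close to 0 in LATS1/2-KO. In luminal ER+ cells the level was 41.2 and 50.2 CPM in CTL and 0.45 and 0 CPM in LATS1/2-KO, where 2 UMIs were counted in all, and the pooled ratio was 143 (39.6 to 1183). In basal cells it was 126 and 32.3 CPM in CTL, while no *Cck* UMI was found among the 373 and 447 basal LATS1/2-KO cells. Of the 115 basal CTL UMIs, 94 came from replicate 1, and without the cells of highest doublet score 23 and 3 UMIs were left. In epithelial cells without lineage it was 334 and 347 CPM in CTL against 0.11 and 0.06 CPM in LATS1/2-KO, with a pooled ratio of 3839 (1311 to 18635) that rests on 3 UMIs. Over all epithelial cells the level was 303 and 369 CPM in CTL and 0.61 and 0.58 CPM in LATS1/2-KO, and as counted the CTL and LATS1/2-KO libraries did not overlap in any of these classes. With free RNA subtracted they overlapped in luminal ER+ cells, at 0 and 0 CPM in CTL and 0.50 and 0 CPM in LATS1/2-KO, so that the pooled ratio there is lost. They also overlapped in basal cells, at 70.5 and 0 CPM in CTL and 0 in both knockouts. That subtraction takes the luminal ER- markers *Csn3*, *Plet1*, *Wfdc18* and *Trf* as absent from luminal ER+ and basal cells. A gene in the same proportion to them as in luminal ER- cells is set near 0 by construction. The subtracted values therefore cannot decide whether *Cck* is made in these 2 lineages. In luminal ER- cells, where collagen genes were taken as absent instead, the subtracted levels were 496 and 659 against 2.13 and 1.62 CPM.

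**Figure D1:**
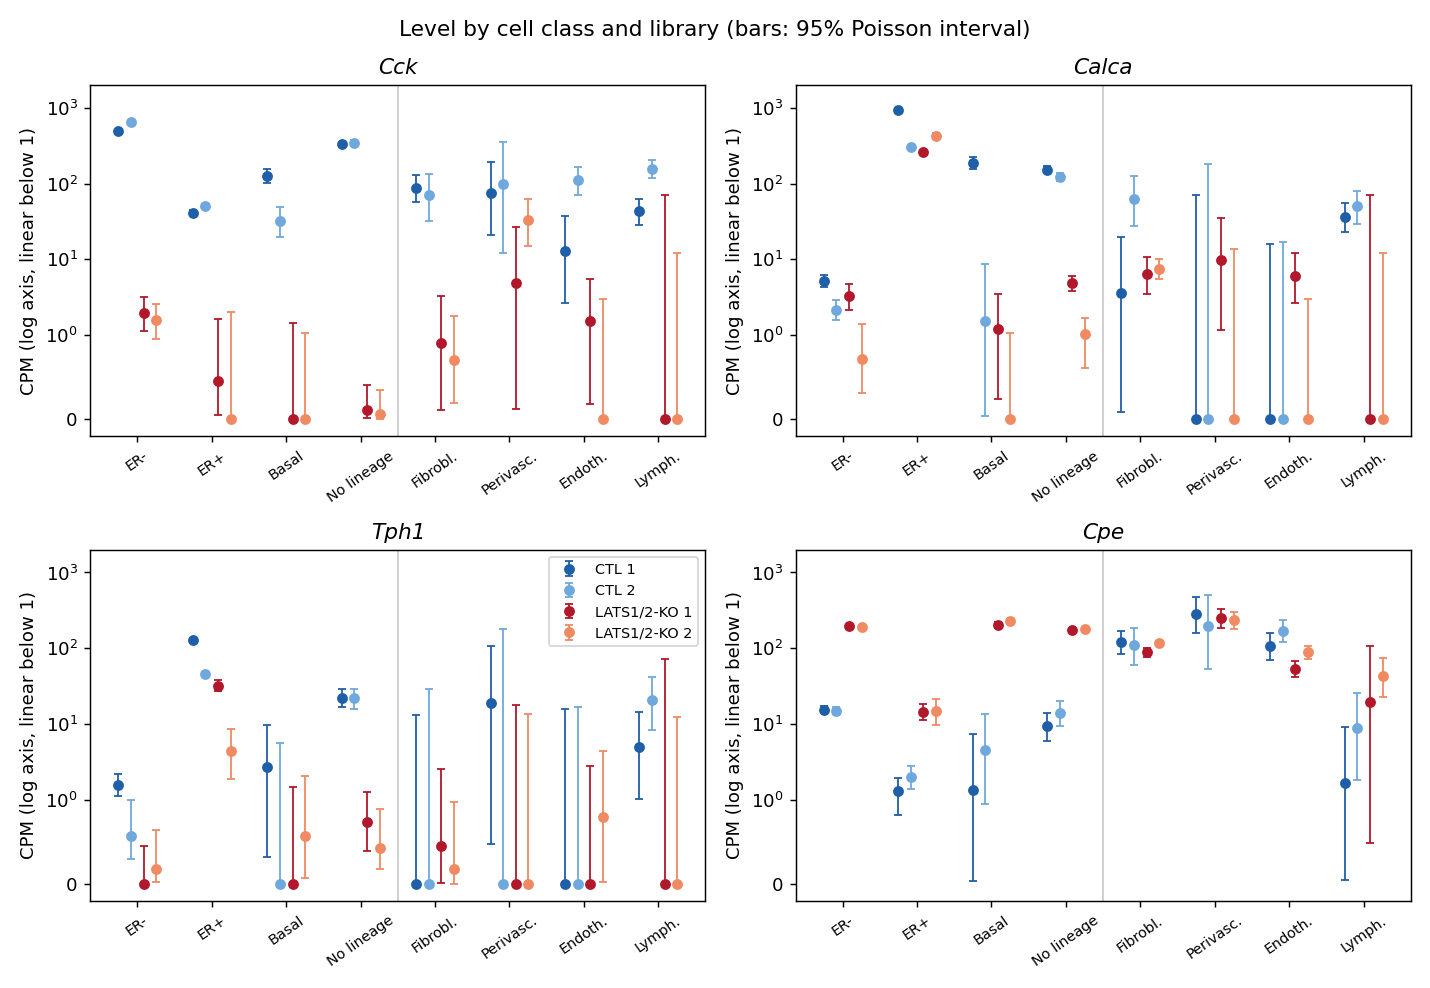
Level of each gene (CPM, log axis that is linear below 1) by cell class, with 1 point per library and 95% Poisson intervals as bars; epithelial classes are left of the grey line. As counted, *Cck* separates CTL from LATS1/2-KO in every epithelial class (with free RNA subtracted, not in luminal ER+ and basal cells, where that subtraction takes luminal ER- markers as absent), *Calca* and *Tph1* are highest in luminal ER+ cells, and *Cpe* is near 200 CPM in LATS1/2-KO luminal ER- and basal cells but near 15 CPM in LATS1/2-KO luminal ER+ cells.

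Most of the *Cck* signal of a CTL gland sat in luminal ER- cells. They held 84.7 and 87.6% of the *Cck* UMIs of the CTL libraries and 51.4 and 49.3% of all UMIs. In CTL, *Cck* was higher in luminal ER- than in luminal ER+ cells by 3.84 on the log2 scale (SE 0.24, adjusted p = 1.7e-08) and than in basal cells by 3.0 (SE 0.31, adjusted p = 7.9e-06), in edgeR's quasi-likelihood test with Benjamini-Hochberg adjustment over all genes tested. Of the 13107 genes tested, 60.6% passed in the first contrast (29.5% higher and 31.1% lower in luminal ER- cells) and 34.1% in the second (18.2% higher and 15.9% lower). The mouse was a block in these tests, so differences in level between mice were removed. With 2 mice per genotype, these p-values measure only how the lineage differences vary from mouse to mouse. Both differences passed in all 13 alternatives, but their size was not fixed. The difference from luminal ER+ cells ran from 3.13 to 15.5 and that from basal cells from 2.22 to 4.90. Luminal ER+ and basal CTL cells were not separated (log2 difference -0.85, SE 0.37, adjusted p = 0.086 in edgeR's quasi-likelihood test, where 39.8% of genes passed, 20.7% higher and 19.0% lower). That contrast passed in 4 of 13 alternatives, with no filter, classes from clusters, free RNA subtracted and without CTL replicate 2 (-1.61, adjusted p = 2.2e-05, edgeR), and its adjusted p ran from 2.2e-05 to 0.56 over the 13. In LATS1/2-KO the luminal ER- cells held 16 and 18 *Cck* UMIs, the luminal ER+ cells 2 and 0 and the basal cells 0 and 0. The gene was chosen for these low levels, so the tests there cannot decide whether its lineages differ. Against luminal ER+ cells the log2 difference was 2.41 and did not pass (SE 1.67, adjusted p = 0.29 in the same edgeR test, where 37.6% of genes passed, 17.1% higher and 20.5% lower). That difference passed in 3 of 13 alternatives, with no filter and without either CTL mouse. Against basal LATS1/2-KO cells the difference was 6.85 and did not pass (SE 3.34, adjusted p = 0.15, edgeR, where 29.8% of genes passed, 13.7% higher and 16.1% lower). The basal contrast passed in 5 of 13 alternatives.

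Outside luminal ER- cells the *Cck* counts were set beside those of lymphocytes and of luminal ER- marker transcripts. CTL lymphocytes, which should lack the gene, stood at 43.2 and 156 CPM, and CTL fibroblasts at 88.4 and 70.8 CPM. At 2000 UMIs per cell a *Cck* UMI was found in 4.91% (3.78 to 6.26) and 6.83% (5.31 to 8.62) of luminal ER+ cells, in 5.81% (2.69 to 10.7) and 0% of basal cells and in 1.40% (0.17 to 4.96) and 5.63% (1.56 to 13.8) of lymphocytes. The intervals of luminal ER+ and basal cells overlapped those of the lymphocytes in both CTL mice, so these shares could not be told from background, and 0 of 143 basal cells allows a share of up to 2.10% when a count of 0 is taken to allow 3 (the exact 95% limit is 2.55%). Median depth at full counts was 12532 and 16204 UMIs in luminal ER+ cells, 3493 and 3771 in basal cells and 2806 and 3202 in lymphocytes.

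The ratio of *Cck* to *Csn3*, a casein gene and luminal ER- marker, was compared between classes that differ widely in *Csn3*, from 150 and 229 CPM in luminal ER+ to 2359 and 3900 CPM in luminal ER- cells. In CTL replicates 1 and 2 there were 20.7 and 16.7 *Cck* UMIs per 100 *Csn3* UMIs in luminal ER- cells, 27.5 and 21.9 in luminal ER+ cells, 25.5 and 11.4 in basal cells, 16.5 and 19.4 in lymphocytes and 26.9 and 25 in fibroblasts. Endothelial cells gave 4.23 and 26.1, from 3 and 24 *Cck* UMIs. Per 100 UMIs of *Trf*, the transferrin gene, there were 32.7 and 33.6 in luminal ER- and 33.6 and 37.9 in luminal ER+ cells, but 29.2 and 10.9 in basal cells and 21.3 and 39.8 in lymphocytes. Per 100 UMIs of *Wfdc18*, another luminal ER- marker, there were 16.3 and 17.3 in luminal ER-, 13.9 and 13.8 in luminal ER+, 85.5 and 15.1 in basal cells, 41.9 and 28.3 in lymphocytes and 17.7 and 69.2 in fibroblasts. Per 100 UMIs of *Plet1* there were 9.51 and 13.7 in luminal ER-, 7.6 and 13.2 in luminal ER+ and 18.0 and 10.4 in basal cells. In LATS1/2-KO luminal ER- cells the ratio to *Csn3* was 0.065 and 0.054, with *Csn3* itself at 2992 and 2955 CPM there. Other luminal ER- markers were lower in those cells, *Plet1* at 464 and 497 CPM against 5145 and 4728 CPM in CTL and *Trf* at 453 and 775 against 1498 and 1935 CPM, and *Cck* per 100 UMIs was 0.42 and 0.323 for *Plet1* and 0.43 and 0.207 for *Trf*.

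**Figure D2:**
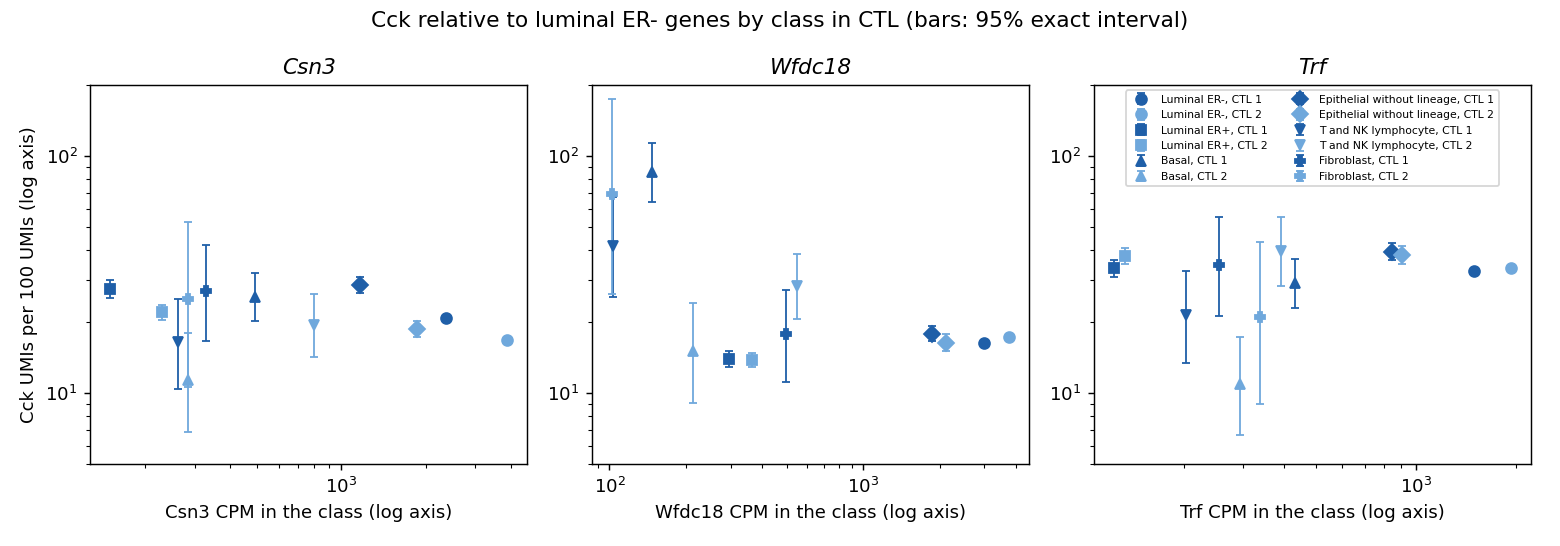
*Cck* UMIs per 100 UMIs of *Csn3*, *Wfdc18* or *Trf* (log axis, 95% exact intervals) against the level of that gene in the class (CPM, log axis) for CTL cells, with 1 marker shape per class and 1 shade per library. For *Csn3* the points lie between 11.4 and 28.6 in the 6 classes shown, and for *Wfdc18* between 13.8 and 85.5.

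The CTL cells outside the luminal ER- gate that held *Cck* were deep and carried luminal ER- markers. The 14 and 8 basal cells with a *Cck* UMI had a median of 12526 and 8856 UMIs against 3331 and 3741 in the rest, and 78.6 and 50% of them held all of *Csn3*, *Plet1*, *Wfdc18* and *Trf*, against 0.633 and 0.699% of the rest. Of those basal cells, 71.4 and 62.5% were among the cells with the highest doublet scores (Scrublet), against 2.53 and 0.699% of the rest. Luminal ER+ cells with a *Cck* UMI held all 4 of *Csn3*, *Plet1*, *Wfdc18* and *Trf* in 46.8 and 65.7% of cases, against 4.91 and 6.76% without it. Of the 250 and 204 luminal ER+ cells with a *Cck* UMI, 24.4 and 15.2% were among the highest doublet scores, against 3.18 and 1.19% of those without it. Among lymphocytes, 7 and 6 cells held *Cck*, and 57.1 and 83.3% of them held all 4 markers. Of these lymphocytes, 42.9 and 50% had the highest doublet scores, against 3.70 and 1.41% of the rest. In the luminal ER+ cluster 5 *Cck* stood at 8.46 and 5.49 CPM, whereas in the deeper cluster 4, which was also gated mostly luminal ER+, it stood at 187 and 232 CPM. Without the cells of highest doublet score the basal CTL level was 40.8 and 5.11 CPM. What part doublets and free RNA have in the counts outside luminal ER- cells was not tested.

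*Calca* was a luminal ER+ gene in both genotypes, and its level varied more between the 2 CTL mice than between the genotypes. In luminal ER+ cells it stood at 941 and 302 CPM in CTL and at 263 and 427 CPM in LATS1/2-KO. The means were 621 ± 452 and 345 ± 116 CPM (SD, n = 2), and the groups overlapped. CTL replicate 1 alone was high, and the LATS1/2-KO over CTL ratio ran from 0.279 to 1.41 over the 4 pairs of mice. Without CTL replicate 1 the fitted log2 difference turned from -0.93 to 0.13. Of the hormone-sensing markers, *Areg* also differed between the CTL mice, at 1181 and 619 CPM, while *Prlr* at 3644 and 3018 CPM, *Pgr* at 182 and 162 CPM and *Cited1* at 1165 and 1090 CPM were closer, and *Cxcl15* was lower in replicate 1, at 75.5 against 129 CPM. Per 100 UMIs of *Areg* there were 79.6 and 48.8 *Calca* UMIs in CTL and 8.20 and 17.0 in LATS1/2-KO, without overlap. The groups overlapped per 100 UMIs of *Prlr* (25.8 and 10.0 against 25.3 and 55.8). They also overlapped per 100 UMIs of *Cited1* (80.8 and 27.7 against 77.2 and 88.2). Whether *Calca* follows these markers was not tested.

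A *Calca* UMI was found in 66.4 and 59.6% of luminal ER+ cells in CTL and in 31.5 and 43.2% in LATS1/2-KO. At 2000 UMIs per cell the shares were 42.1% (39.3 to 44.9) and 26.2% (23.4 to 29.1) in CTL and 20.8% (17.3 to 24.8) and 23.5% (17.2 to 30.7) in LATS1/2-KO, with lymphocytes at 3.5 and 4.23% in CTL. At this equal depth the shares of CTL replicate 2 and both LATS1/2-KO mice had overlapping intervals. The transcript was concentrated in part of the lineage, since the top 10% of luminal ER+ cells held 63.7 and 63.1% of its UMIs in CTL and 75.8 and 72.7% in LATS1/2-KO, and 1 CTL cell held 446 UMIs.

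*Calca* was rare in luminal ER- cells, at 5.15 and 2.14 CPM in CTL and 3.29 and 0.71 CPM in LATS1/2-KO. Epithelial cells without lineage stood at 152 and 122 CPM in CTL and 4.82 and 1.04 CPM in LATS1/2-KO, and CTL lymphocytes at 36.5 and 49.9 CPM. The lineage difference, luminal ER- minus ER+, was -7.23 (SE 0.40, adjusted p = 2.2e-09) on the log2 scale in CTL and -7.61 (SE 0.48, adjusted p = 2.8e-08) in LATS1/2-KO in edgeR's quasi-likelihood test. Over the 13 alternatives it ran from -15.6 to -6.71 in CTL and from -11.1 to -6.43 in LATS1/2-KO. With free RNA subtracted, luminal ER- cells held 0 and 0 *Calca* UMIs in CTL. Basal CTL cells gave 187 CPM in replicate 1 but 1.54 CPM in replicate 2, and 90 of the 140 UMIs of replicate 1 came from 1 cell. Luminal ER+ cells were above basal cells by 2.82 in CTL (SE 0.40, adjusted p = 7.2e-05) and by 9.41 in LATS1/2-KO (SE 0.72, adjusted p = 2.4e-07, edgeR's quasi-likelihood test, 33.4% of genes passing, 17.3% higher and 16.1% lower). The CTL difference kept its call in all 13 alternatives but ran from 2.33 without CTL replicate 2 to 7.64 without CTL replicate 1. The LATS1/2-KO difference ran from 7.85 to 15.0, and the basal LATS1/2-KO cells held 3 and 0 *Calca* UMIs. Luminal ER- cells were below basal cells in CTL by -4.41 (adjusted p = 3.5e-05, edgeR), a call that turned to 0.79 with an adjusted p = 0.84 without CTL replicate 1 (edgeR). It was also lost with DESeq2 (adjusted p = 0.094), with classes from clusters (-0.33, adjusted p = 0.72, edgeR) and without the highest Scrublet scores (-0.57, adjusted p = 0.59, edgeR), and so held in 9 of 13 alternatives.

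*Tph1* was likewise found mostly in luminal ER+ cells, and was lower in both LATS1/2-KO mice than in either CTL mouse. Its level there was 130 and 45.9 CPM in CTL and 32.0 and 4.41 CPM in LATS1/2-KO. The means were 87.9 ± 59.4 and 18.2 ± 19.5 CPM (SD, n = 2), and the groups did not overlap, but the nearest pair of mice differed only 1.44-fold. The low LATS1/2-KO replicate 2 rests on 8 UMIs in 162 cells. Luminal ER+ cells held 95 and 92.0% of all *Tph1* UMIs of the CTL libraries. The fitted log2 difference between genotypes was -2.08 with all 4 mice, -4.43 without LATS1/2-KO replicate 1 and -1.15 without CTL replicate 1. The hormone-sensing markers were not at the same level in the genotypes either: in LATS1/2-KO luminal ER+ cells *Prlr* stood at 1038 and 765 CPM and *Cited1* at 340 and 484 CPM, both below CTL, and *Areg* at 3202 and 2506 CPM, above it. Per 100 UMIs of *Prlr* there were 3.57 and 1.52 *Tph1* UMIs in CTL and 3.08 and 0.576 in LATS1/2-KO, so that the groups overlapped on this scale, as they did per 100 UMIs of *Cited1* (11.2 and 4.21 against 9.39 and 0.911). Per 100 UMIs of *Areg* they did not overlap (11 and 7.42 against 0.998 and 0.176).

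At 2000 UMIs per cell *Tph1* was seen in 13.4% (11.6 to 15.5) and 4.94% (3.65 to 6.51) of luminal ER+ cells in CTL and in 4.63% (2.93 to 6.93) and 1.23% (0.150 to 4.39) in LATS1/2-KO, with 0.699 and 0% in CTL lymphocytes. The unthinned shares were 26.8, 20.6, 11.2 and 4.32%. CTL replicate 2 and LATS1/2-KO replicate 1 were thus indistinguishable in the share of positive cells at equal depth. At that depth *Tph1* was in 11.7 and 5.22% of *Calca*-positive CTL luminal ER+ cells and in 14.7 and 4.84% of the others. In LATS1/2-KO it was in 2.02 and 0% of the *Calca*-positive and in 5.32 and 1.61% of the other cells, from 22 and 2 cells with *Tph1*. The share was lower with *Calca* in 3 of the 4 libraries, which was not tested.

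The lineage difference of *Tph1*, luminal ER- minus ER+, was -6.13 (SE 0.25, adjusted p = 9.2e-11) in CTL and -7.23 (SE 0.59, adjusted p = 3.6e-07) in LATS1/2-KO on the log2 scale, and ER+ minus basal was 5.97 (SE 0.60, adjusted p = 2.7e-06) and 5.61 (SE 0.69, adjusted p = 2.1e-05), all in edgeR's quasi-likelihood test. The last of these was lost without LATS1/2-KO replicate 1 (2.90, adjusted p = 0.055, edgeR) and was 11.3 without LATS1/2-KO replicate 2. Over the 13 alternatives luminal ER- minus ER+ ran from -12.7 to -6.02 in CTL and from -11.3 to -4.56 in LATS1/2-KO. ER+ minus basal ran from 5.60 to 12.6 in CTL. With free RNA subtracted, luminal ER- cells held 0 and 0 *Tph1* UMIs in CTL. Luminal ER- and basal CTL cells, with 50 and 2 *Tph1* UMIs, were not separated (adjusted p = 0.95 in edgeR). Mast cells are known to carry *Tph1*, and 1 luminal ER+ cell of CTL replicate 2 held at least 3 mast cell markers and 5 *Tph1* UMIs. Without it the level of that library was 45.7 CPM. Of 5 neuroendocrine markers, *Chga* was at 0 in all 3 lineages of all libraries, and the 5 together reached at most 2.20 CPM.

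*Cpe* was low in CTL epithelium and higher in LATS1/2-KO luminal ER- and basal cells. In luminal ER- cells it stood at 15.5 and 15.0 CPM in CTL and 195 and 188 CPM in LATS1/2-KO, a 12.5-fold ratio of the means (15.3 ± 0.34 and 191 ± 4.8 CPM, SD, n = 2). In basal cells it stood at 1.34 and 4.61 CPM in CTL and 204 and 228 CPM in LATS1/2-KO, and the pooled ratio was 76.2 (29.7 to 280), since CTL gave 4 UMIs. In epithelial cells without lineage it stood at 9.36 and 14.1 CPM in CTL and 175 and 177 CPM in LATS1/2-KO. The CTL mice lay close together in luminal ER- cells and less so in the other classes, and the groups did not overlap in any of the 3. With free RNA subtracted, luminal ER- cells stood at 15.6 and 15.1 CPM in CTL and 199 and 190 CPM in LATS1/2-KO. Basal cells then stood at 0 and 3.55 CPM in CTL and 216 and 240 CPM in LATS1/2-KO.

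In luminal ER+ cells *Cpe* stood at 1.30 and 1.98 CPM in CTL and 14.6 and 14.9 CPM in LATS1/2-KO. With free RNA subtracted the levels were 0 and 0.59 against 0 and 4.13 CPM, and the groups overlapped. The subtraction rests on the same assumption, that luminal ER- markers are absent from these cells. LATS1/2-KO lymphocytes gave 19.3 and 43.2 CPM and macrophages 27.7 and 34.4 CPM, and at 2000 UMIs per cell 2.53 and 4.32% of luminal ER+ cells held a UMI against 10.0 and 5.00% of lymphocytes. The luminal ER+ level and shares of LATS1/2-KO were thus not above those of the lymphocytes. Lineage differences of *Cpe* were tested: luminal ER- exceeded ER+ cells by 3.41 in CTL (SE 0.17, adjusted p = 7.6e-10) and by 3.60 in LATS1/2-KO (SE 0.15, adjusted p = 3.5e-10), and basal exceeded ER+ cells in LATS1/2-KO (ER+ minus basal -3.83, SE 0.15, adjusted p = 3.3e-10), in edgeR's quasi-likelihood test. Luminal ER- exceeded basal cells in CTL by 2.62 (SE 0.49, adjusted p = 8.0e-04), whereas in LATS1/2-KO the difference was -0.22 (SE 0.10, adjusted p = 0.11, edgeR, where 29.8% of genes passed, 13.7% higher and 16.1% lower).

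The share of luminal ER- cells with a *Cpe* UMI was 9.59 and 10.4% in CTL and 64.8 and 66.5% in LATS1/2-KO, and at 2000 UMIs per cell it was 2.98% (2.35 to 3.72) and 2.63% (1.97 to 3.44) against 30.0% (27.0 to 33.1) and 27.8% (25.1 to 30.6). In basal cells at 2000 UMIs it was 0 of 155 and 0 of 143 in CTL, which allows up to 1.94 and 2.10% by the same rule of 3 counts (exact 95% limits of 2.35 and 2.55%), and 28.7 and 28.5% in LATS1/2-KO. In LATS1/2-KO lymphocytes the thinned shares were 10.0 and 5.00%, from 10 and 60 cells. *Cpe* was spread over much of both lineages, with a median of 141 and 135 CPM per luminal ER- cell in LATS1/2-KO and the top 10% of cells holding 39.6 and 38.6% of the UMIs.

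Stromal cells carried *Cpe* in both genotypes. Fibroblasts stood at 120 and 110 CPM in CTL and 88.6 and 117 CPM in LATS1/2-KO, perivascular cells at 284 and 197 against 252 and 234 CPM, and endothelial cells at 107 and 170 against 53.9 and 88.1 CPM. The CTL values rest on few cells, 34 and 14 *Cpe* UMIs in 61 and 26 fibroblasts, 15 and 4 UMIs in 13 and 3 perivascular cells and 25 and 37 UMIs in 38 and 33 endothelial cells. The fibroblast and perivascular groups overlapped. Fibroblasts were 1.24 and 0.740% of the kept cells in CTL and 9.16 and 20.8% in LATS1/2-KO, and what part their RNA has in the *Cpe* of other classes was not tested.

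**Figure D3:**
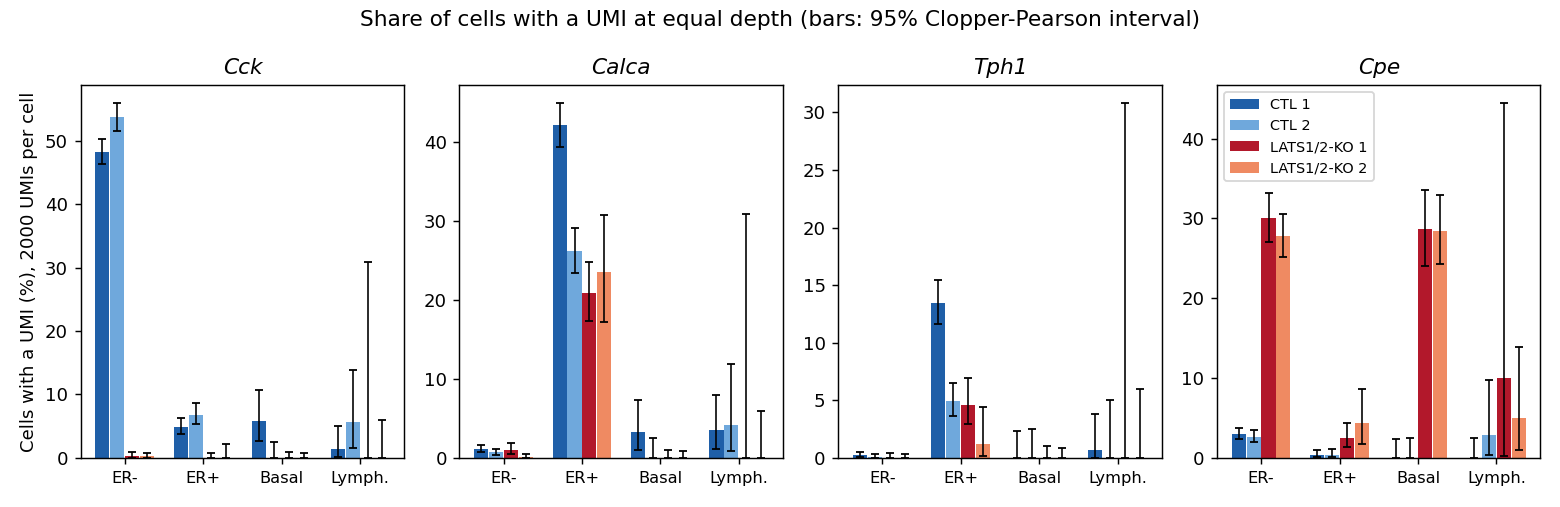
Share of cells with at least 1 UMI of each gene after thinning to 2000 UMIs per cell (percent, 95% Clopper-Pearson intervals) in luminal ER-, luminal ER+ and basal cells and in lymphocytes, with 1 bar per library. *Cck* bars reach 48.2 and 53.7% in CTL luminal ER- cells and stay under 1% in LATS1/2-KO, and *Cpe* bars reach 27.8 to 30.0% in LATS1/2-KO luminal ER- and basal cells.

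Cells with and without *EYFP* were compared within LATS1/2-KO glands to ask whether the pattern followed Cre activity in the same cell. For *Cpe* in luminal ER- cells the difference did not pass: the cells stood at 204 and 214 CPM with *EYFP* and 193 and 182 CPM without it, a log2 difference of 0.14 (SE 0.09, adjusted p = 0.38) in edgeR's quasi-likelihood test with the mouse as block, where 10.4% of 11135 genes passed, 6.18% higher and 4.25% lower with *EYFP*. A missed threshold does not show that the cells are alike. In basal cells *Cpe* was higher with *EYFP* in both mice, at 282 (225 to 349) and 284 (247 to 325) CPM in 25 and 47 cells against 194 (176 to 213) and 213 (196 to 231) CPM without it, and in epithelial cells without lineage it was lower, at 162 and 175 against 187 and 180 CPM. These differences outside luminal ER- cells were not tested. The *EYFP*-negative cells, at 193 and 182 CPM, stood far above the 15.5 and 15.0 CPM of CTL luminal ER- cells. *Cck* gave 1 and 0 UMIs in the 96 and 133 *EYFP*-positive and 15 and 18 UMIs in the 816 and 955 *EYFP*-negative luminal ER- cells. Cells whose *EYFP* transcript was not sampled are among the negative ones, and *EYFP*-positive cells were deeper, at 11033 and 14406 against 7060 and 7868 UMIs. Cells that are not luminal held *EYFP* too: 4.37 and 3.55% of LATS1/2-KO fibroblasts, 2.76 and 3.46% of macrophages, 2.98 and 5.24% of endothelial cells and 0 and 5.13% of lymphocytes. An *EYFP* UMI is therefore not a sure mark of Cre activity in a cell, and what part free RNA has in it was not tested.

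*Calca* and *Tph1* were lower in the *EYFP*-positive luminal ER+ cells of both LATS1/2-KO mice. *Calca* stood at 54.0 and 34.4 CPM in the 62 and 47 positive cells and at 306 and 640 CPM in the 421 and 115 negative cells. *Tph1* stood at 11.9 and 1.56 CPM with *EYFP* and 36.1 and 5.96 CPM without it, where the value of 1.56 CPM rests on 1 UMI and its interval overlapped that of the negative cells. Of the positive cells, 28 and 27 belonged to cluster 23, against 5 and 3 of the negative ones, and cluster 23 held *Calca* at 2.32 and 1.25 CPM. Without the cells of cluster 23 *Calca* stood at 99.8 and 84.0 CPM in the remaining 34 and 20 positive cells and at 308 and 652 CPM in the 416 and 112 negative cells, and *Tph1* at 21.9 and 4 against 36.4 and 6.07 CPM. These 2 differences pointed the same way in both mice and were not tested, because this comparison was planned for luminal ER- cells.

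**Figure D4:**
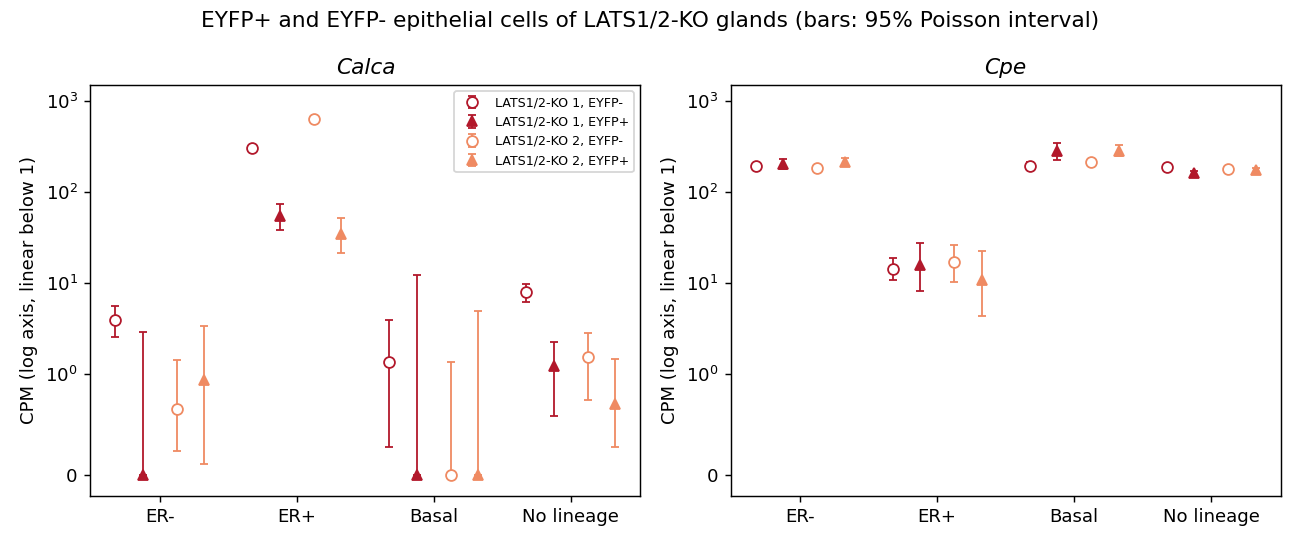
*Calca* and *Cpe* levels (CPM, log axis that is linear below 1, 95% Poisson intervals) in *EYFP*-negative (open circles) and *EYFP*-positive (filled triangles) cells of the 2 LATS1/2-KO libraries by class. *Calca* is lower in *EYFP*-positive luminal ER+ cells of both mice, and *Cpe* in luminal ER- cells lies between 182 and 214 CPM on both sides.

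Genes of the CCK and CGRP family, of hormone processing and of serotonin metabolism were then read from lists. Between LATS1/2-KO and CTL, 51.1% of the 12853 genes tested in luminal ER- cells passed (25.7% higher and 25.4% lower), 29.3% of 12438 in luminal ER+ cells (15.4% higher and 13.9% lower) and 33.0% of 9832 in basal cells (16.7% higher and 16.3% lower), with edgeR's quasi-likelihood test and an adjusted p under 0.05 as the threshold. A large share of any list therefore passes. The median log2 fold change of all tested genes was near 0 in the 3 lineages (-0.01, -0.01 and 0.01). CPM are scaled by total counts, whereas the fold changes use edgeR's TMM scaling, so a fold change can differ from the ratio of the CPM beside it. Of the calls in luminal ER- cells 50.2% were higher in LATS1/2-KO, and 75.9% were with scaling by total counts, which moved the median of all genes to 0.33, while in basal cells the share went from 50.5 to 61.8% and the median to 0.14.

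Among 13 genes of the CCK and CGRP family and their receptors, the receptors of the 2 hormones were hardly detected in epithelium. *Cckar*, *Cckbr* and *Calcr*, the receptors for cholecystokinin and calcitonin, stood at no more than 0.29 CPM in any lineage and library. In luminal ER- cells 5 genes were tested, of which 2 rose and 1 fell (median log2 fold change 0.52). In luminal ER+ cells all 4 tested genes rose (median 1.5), and in basal cells 1 of 3 did (median 0.75).

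*Calcb*, which encodes the second form of CGRP, rose in luminal ER+ cells from 1.00 and 0.40 CPM to 60.6 and 32.5 CPM (log2 fold change 6.05, SE 0.47, adjusted p = 9.1e-04, edgeR). *Calcb* and *Calca* are related in sequence, so how reads were divided between them is uncertain. Of the luminal ER+ LATS1/2-KO cells, 63 belonged to cluster 23, which was rich in *EYFP* and held *Calcb* at 181 and 105 CPM, against 24.9 and 14.3 CPM in cluster 19, the main luminal ER+ cluster of the knockouts, and their part in the rise was not tested. *Ramp1*, which joins *Calcrl* to form the CGRP receptor, rose in luminal ER+ cells from 26.5 and 27.4 CPM to 152 and 107 CPM (2.24, SE 0.19, adjusted p = 0.0012, edgeR) and in basal cells from 41.5 and 18.4 CPM to 210 and 190 CPM (2.57, SE 0.26, adjusted p = 3.0e-05, edgeR). In luminal ER- cells *Ramp1* was 170 and 157 CPM in CTL and 187 and 207 CPM in LATS1/2-KO and did not pass (adjusted p = 0.59, edgeR). The fold change of *Ramp1* differed between luminal ER- and ER+ cells by -2.30 (adjusted p = 9.4e-06) and between luminal ER- and basal cells by -2.69 (adjusted p = 5.7e-05) in the interaction test of edgeR, where 18.0% (8.02% higher and 9.95% lower) and 15.5% (6.47% higher and 9.0% lower) of 13107 genes passed. *Crcp*, a CGRP receptor component, rose in luminal ER- cells from 12.5 and 11.4 to 26.2 and 23.6 CPM and in luminal ER+ cells from 20.3 and 16.9 to 31.7 and 34.2 CPM, the second call being lost in 3 of 15 alternatives. *Calcrl* itself stood under 3 CPM in all 3 lineages and fell in luminal ER- cells (adjusted p = 0.020, edgeR).

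Of 27 genes of prohormone processing and regulated secretion, 15 were tested in luminal ER- cells, where 4 rose and 3 fell (median log2 fold change 0.32), 13 in luminal ER+ cells, where 5 rose and 2 fell (median 0.39), and 11 in basal cells, where 2 rose and 5 fell (median -0.11). The neuroendocrine convertases *Pcsk1* and *Pcsk2* and the granule protein gene *Chga* were at or near 0, with at most 1.54 CPM in any lineage and library.

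*Furin*, a ubiquitous convertase, rose in luminal ER+ cells from 55 and 57.9 to 95 and 104 CPM (log2 fold change 0.76, SE 0.11, adjusted p = 0.0050, edgeR) and in basal cells from 56.2 and 40.0 to 105 and 122 CPM (1.09, SE 0.20, adjusted p = 0.0018, edgeR). *Pcsk6*, which codes for the convertase PACE4, rose in luminal ER- cells from 0.04 and 0.24 to 5.48 and 5.62 CPM (4.96, SE 0.49, adjusted p = 2.6e-04, edgeR) and in luminal ER+ cells from 1.24 and 2.89 to 10.1 and 12.7 CPM, where 12 of 14 alternatives kept the call. *Cpm*, a cell-surface carboxypeptidase gene, rose in luminal ER- cells from 0.87 and 1.14 to 6.95 and 15.2 CPM and fell in basal cells from 17.4 and 21.5 to 3.17 and 3.74 CPM (-2.58, SE 0.40, adjusted p = 5.9e-04, edgeR). *Cpm* thus moved in opposite directions in the lineages that both had high *Cpe* in LATS1/2-KO, and the difference between the fold changes was 5.69 (SE 0.53, adjusted p = 9.5e-06, edgeR).

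*Pam*, whose product amidates peptide hormones such as CCK and CGRP at their ends, rose in luminal ER- cells from 52.0 and 48.2 to 89.7 and 86.6 CPM (0.48, SE 0.09, adjusted p = 0.0050, edgeR), a call narrowly lost without CTL replicate 2 (adjusted p = 0.0501). *Tpst2*, a tyrosylprotein sulfotransferase of the kind that sulfates CCK, rose in luminal ER+ cells from 12.2 and 14.2 to 28.4 and 26.5 CPM and in basal cells from 24.1 and 18.4 to 53.5 and 49.5 CPM, while *Tpst1* fell in basal cells from 28.1 and 26.1 to 16.6 and 6.91 CPM. *Rab3a* and *Cadps2*, genes of vesicle release, were lower: *Rab3a* fell in luminal ER+ cells from 9.69 and 10.2 to 3.60 and 3.86 CPM and in basal cells from 8.02 and 16.9 to 2.77 and 5.18 CPM, and *Cadps2* fell in luminal ER- cells from 39.3 and 38.2 to 28.3 and 31.8 CPM and in luminal ER+ cells from 37.3 and 44.2 to 24.3 and 28.7 CPM. The basal calls of *Rab3a* and *Tpst1* and the luminal ER+ call of *Cadps2* each held in 10 or 11 of the 14 or 15 alternatives, and the luminal ER- call of *Cadps2* and the luminal ER+ call of *Rab3a* were lost with thinned cells. Both calls of *Tpst2* were lost with thinned cells, the luminal ER+ call also without LATS1/2-KO replicate 1 and the basal call also with classes from clusters.

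**Figure D5:**
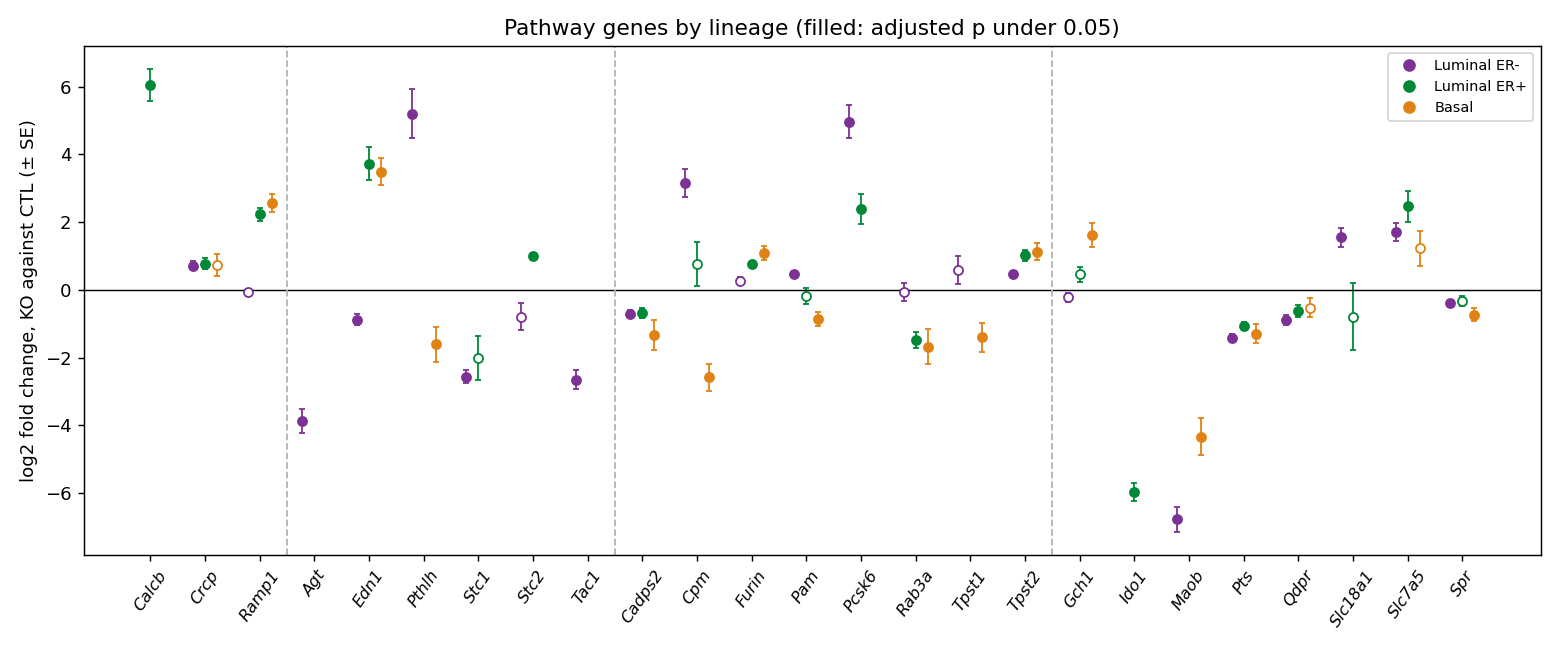
Log2 fold change of LATS1/2-KO against CTL (± SE, n = 2 mice each) for the genes of the lists named in the text, in luminal ER-, luminal ER+ and basal cells; filled points have an adjusted p under 0.05 in edgeR's quasi-likelihood test. *Calcb*, *Pthlh*, *Pcsk6* and *Edn1* lie highest and *Maob* and *Ido1* lowest, and *Cpm* and *Pthlh* have opposite signs in luminal ER- and basal cells.

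Serotonin needs a second enzyme after *Tph1*, the decarboxylase encoded by *Ddc*, and tetrahydrobiopterin as cofactor. *Ddc* stood at 0.25 and 0.24 CPM in CTL and 0 and 0.09 CPM in LATS1/2-KO luminal ER- cells, at 0.18, 0.11, 0.23 and 0 CPM in luminal ER+ cells and at 0 in basal cells. *Tph2*, the brain hydroxylase gene, and the serotonin transporter gene *Slc6a4* stood at no more than 1.19 CPM in any lineage and library. At this depth the luminal ER+ lineage thus showed the gene of the first step of serotonin synthesis with almost no transcript of the second.

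Of 20 genes of serotonin metabolism and its cofactor, 11 were tested in luminal ER- cells, where 3 rose and 6 fell (median log2 fold change -0.56), 11 in luminal ER+ cells, where 1 rose and 3 fell (median -0.32), and 9 in basal cells, where 1 rose and 3 fell (median -0.33). *Pts*, which acts in tetrahydrobiopterin synthesis, fell in all 3 lineages, from 60.7 and 59.4 to 28.9 and 28.5 CPM in luminal ER- cells (-1.40, SE 0.10, adjusted p = 6.3e-05, edgeR), from 62.7 and 62.1 to 30.4 and 31.4 CPM in luminal ER+ cells (-1.07, SE 0.12, adjusted p = 0.0024, edgeR) and from 34.8 and 26.1 to 13.1 and 14.4 CPM in basal cells (-1.29, SE 0.29, adjusted p = 0.0061, edgeR), the basal call being lost with thinned cells and without CTL replicate 1. *Qdpr*, which recycles the cofactor, fell in luminal ER- cells from 30.4 and 31.3 to 17.9 and 24.2 CPM and in luminal ER+ cells from 34.3 and 42.3 to 22.3 and 30.9 CPM, and the second call was lost in 11 of 15 alternatives. *Spr*, of the same route, fell in basal cells from 61.5 and 60.0 to 38.8 and 41.5 CPM (12 of 15 alternatives), while *Gch1*, its first enzyme, rose there from 25.4 and 15.4 to 87.1 and 54.4 CPM (1.62, SE 0.34, adjusted p = 0.0040, edgeR).

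*Maob* and *Ido1* had the lowest log2 fold changes of the named genes of this list. *Maob*, a monoamine oxidase gene, fell in luminal ER- cells from 10.4 and 8.89 CPM to 0.12 and 0.09 CPM, where 2 LATS1/2-KO UMIs give a CTL over LATS1/2-KO ratio between 25.9 and 779, and in basal cells from 17.4 and 15.4 to 0.40 and 1.15 CPM (-4.33, SE 0.54, adjusted p = 1.4e-04, edgeR). *Ido1*, which opens the competing kynurenine route from tryptophan, fell in luminal ER+ cells, the lineage with *Tph1*, from 71.8 and 65.0 to 1.35 and 0.55 CPM (-5.97, SE 0.26, adjusted p = 2.6e-04, edgeR). *Slc7a5*, an amino acid transporter that carries tryptophan, rose in luminal ER- cells from 2.91 and 2.76 to 8.77 and 14.6 CPM and in luminal ER+ cells from 1.54 and 1.36 to 5.40 and 12.7 CPM. *Slc18a1*, a vesicular monoamine transporter, rose in luminal ER- cells from 1.41 and 1.57 to 4.51 and 6.42 CPM. None of the 14 serotonin receptor genes passed the filter on low counts in any lineage.

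Of 35 other peptide hormone and neuropeptide genes, 8 were tested in luminal ER- cells, where 2 rose and 4 fell (median log2 fold change -0.83), 7 in luminal ER+ cells, where 2 rose and none fell (median -1.10), and 3 in basal cells, where 1 rose and 1 fell (median -0.70). *Cck* was thus not the only peptide gene of luminal ER- cells that was lower in LATS1/2-KO. *Tac1*, the substance P gene, fell from 24.7 and 16.1 to 5.12 and 3.30 CPM (-2.65, SE 0.29, adjusted p = 3.7e-04, edgeR), *Agt*, the angiotensinogen gene, from 9.51 and 14.5 to 0.73 and 1.25 CPM, and the stanniocalcin gene *Stc1* from 15.7 and 13.6 to 2.68 and 3.48 CPM. *Pthlh*, which encodes parathyroid hormone-related protein, rose in luminal ER- cells from 0.17 and 0.14 to 11.7 and 3.74 CPM (5.20, SE 0.73, adjusted p = 0.0011, edgeR) and fell in basal cells from 13.4 and 16.9 to 8.32 and 3.17 CPM (-1.60, SE 0.52, adjusted p = 0.034, edgeR), a basal call lost in 6 of 14 alternatives. *Edn1*, the endothelin 1 gene, rose in luminal ER+ cells from 10.6 and 12.5 to 82.2 and 249 CPM (3.73, SE 0.49, adjusted p = 0.0040, edgeR) and in basal cells from 5.35 and 3.07 to 46.3 and 60.2 CPM, a basal call lost with classes taken from clusters, and *Stc2* rose in luminal ER+ cells from 181 and 205 to 391 and 404 CPM.

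The genes whose levels followed each of the 4 most closely were found by Pearson correlation of log2(CPM + 1) over the 12 sums of 3 lineages in 4 libraries, among 8179 genes with a mean of at least 10 CPM. The 12 sums share their libraries and their free RNA, and the correlations are a description. For *Cck* the closest were *Ddx5* (r = 0.98), *Rplp1*, *Rpl26*, *Supt3* and *Rpl10*, for *Calca* *Fgb* (r = 0.98), *Slc35f3*, *Slc44a4*, *Tmem56* and *Foxa1*, for *Tph1* *A830008E24Rik* (r = 0.97), *Capsl*, *Mysm1*, *Swi5* and *Tmed3*, and for *Cpe* *Prrg4* (r = 0.97), *1600020E01Rik*, *Endod1*, *Lims1* and *Myo1d*. The correlation compares the shape of a pattern and not its size, and the *Cck* pattern holds the genotype difference that the gene was chosen for. *Ddx5* stood at 2328 and 2302 CPM in CTL and 1131 and 1164 CPM in LATS1/2-KO luminal ER- cells, a far smaller difference than that of *Cck*. The *Calca* and *Tph1* genes were highest in luminal ER+ sums. *Fgb*, a fibrinogen chain gene, stood at 228 and 161 CPM in CTL and 266 and 94.2 CPM in LATS1/2-KO luminal ER+ cells and at no more than 2.58 CPM in luminal ER- cells. The *Cpe* genes were higher in LATS1/2-KO luminal ER- and basal sums. *Prrg4* stood at 19.4 and 18.4 CPM in CTL and 75.2 and 63.0 CPM in LATS1/2-KO luminal ER- cells and at 10.7 and 13.8 against 106 and 65.1 CPM in basal cells.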

How the data were processed

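4 single-cell RNA libraries, 1 per mouse, were analysed. The authors deposited a matrix of UMI counts per gene and barcode for each library, and these counts were not normalised. The submitters' processing notes name Cell Ranger 3.1.0 and mm10, while the matrix headers carry version 6.1.2, so which version made the counts is not settled. A barcode was kept if it had over 500 genes with mitochondrial UMIs below 20%, which left 18200 of 20324. *EYFP* is a row of the matrices.

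Lineages were gated per cell by the mean z-score of log-normalised counts over marker lists, with a margin of at least 0.5 to the next lineage and at least 3 markers detected, and basal cells also needed 2 UMIs of *Krt5*, *Krt14* and *Krt17* together. 1144 cells lay within 0.1 of the margin. Graph clusters (Leiden, 24 clusters, *Cck*, *Calca*, *Tph1* and *Cpe* left out) gave the same lineage for 96.2% of the 10597 gated cells. A cluster was named after the class of most of its gated cells, so this agreement is partly built in. Scrublet called 84 cells at its own threshold, too few to be of use, so no doublets were removed, and the 759 cells of highest score were left out as an alternative.

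UMIs were summed per lineage and library. Genes passing filterByExpr were tested with edgeR's quasi-likelihood test on TMM-scaled sums and Benjamini-Hochberg adjustment over all of them, with genotype alone for LATS1/2-KO against CTL, and with the mouse as a block for lineages, for *EYFP* and for interactions. The test was tried on simulated counts first. An exact permutation test of 2 against 2 mice cannot go below p = 0.33. *Cck*, *Calca*, *Tph1*, *Cpe* and all gene lists were chosen with earlier results of these data known. The lists cover the CCK and CGRP family and receptors, prohormone processing, serotonin and its cofactor, serotonin receptors, and other peptide hormones, besides markers of each cell type. Named genes are the 3 largest changes per list, lineage and direction with an adjusted p under 0.05, no overlap between libraries and a mean of at least 5 CPM in 1 genotype, the 5 genes closest in pattern to each of *Cck*, *Calca*, *Tph1* and *Cpe*, and *Lats1*, *Lats2* and *EYFP*. Some genes that meet these criteria are counted within their lists but not reported here by name. Genes near 0 were named besides, after their values were seen. Alternatives were RLE scaling, DESeq2, no filter, the replicate number as block, classes from clusters, a stricter gate (0.75), under 10% mitochondrial UMIs, cells thinned to 2000 UMIs (1561 shallower cells left out), free RNA subtracted, and each library left out. The share of free RNA was set by genes assumed absent from a lineage. These were *Col1a1*, *Col1a2* and *Col3a1* for luminal ER- cells and *Wfdc18*, *Csn3*, *Plet1* and *Trf* for luminal ER+ and basal cells. Scaling by total counts, sums over all epithelial or unclassed cells, a stricter gate or a left-out library for the shares, and *EYFP* values outside luminal ER- cells and without cluster 23 were chosen after seeing the data. Versions were Python 3.11.15, scanpy 1.11.5, R 4.3.3, edgeR 4.0.16 and DESeq2 1.42.0.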

Additional observations from a re-analysis of the deposited data

Results flagged for a closer look

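The fold change between LATS1/2-KO and CTL differed between lineages for several genes of the lists, in the interaction test of edgeR's quasi-likelihood fit with Benjamini-Hochberg adjustment over all genes. Values are log2 fold change in luminal ER- cells minus that in the other lineage. Of all 13107 genes tested, 18.0% passed against luminal ER+ cells (8.02% higher and 9.95% lower) and 15.5% against basal cells (6.47% higher and 9.0% lower). Against luminal ER+ cells the difference was 2.23 for *Cpm* (adjusted p = 0.0091), -4.53 for *Edn1* (adjusted p = 4.9e-07), -0.51 for *Furin* (adjusted p = 0.030), -0.63 for *Gch1* (adjusted p = 0.046), 0.66 for *Pam* (adjusted p = 0.032), 2.50 for *Pcsk6* (adjusted p = 0.012), 1.23 for *Rab3a* (adjusted p = 0.031), -2.30 for *Ramp1* (adjusted p = 9.4e-06) and -1.78 for *Stc2* (adjusted p = 0.0039).

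Against basal cells, in the same edgeR test, it was 5.69 for *Cpm* (adjusted p = 9.5e-06), -4.42 for *Edn1* (adjusted p = 2.8e-04), -0.89 for *Furin* (adjusted p = 0.012), -1.89 for *Gch1* (adjusted p = 4.1e-04), 1.28 for *Pam* (adjusted p = 0.0072), 6.63 for *Pthlh* (adjusted p = 1.9e-05), 1.59 for *Rab3a* (adjusted p = 0.044) and -2.69 for *Ramp1* (adjusted p = 5.7e-05).

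*Cpe* was also present in cells that the gate left unclassed, which no comparison used: 132.1 and 156 CPM in LATS1/2-KO against 16.2 and 16.9 CPM in CTL. These cells were shallow, with a median of 1850 and 2320 UMIs in LATS1/2-KO and 3084 and 3335 UMIs in CTL.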

How the results depend on the processing

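The tested lineage differences of *Cck*, *Calca*, *Tph1* and *Cpe* kept their direction and side of the threshold in 292 of 319 alternative fits, and none of the 607 refits of named list genes changed sign, though 50 no longer passed. 10 of these fits reversed, and the cause was not tested. *Tph1* in CTL, luminal ER- minus basal (-0.16), became 0.074 with DESeq2, 3.829 with thinned cells and 6.077 without the highest Scrublet scores. *Cck* in CTL, luminal ER+ minus basal (-0.85), became 0.752 with thinned cells and 0.537 without the highest Scrublet scores, *Cpe* in the same contrast (-0.79) became 4.783 with thinned cells, and *Cpe* with against without *EYFP* became -0.024 with classes from clusters. Leaving out 1 mouse gave -4.921 to 0.788 for *Calca* and -0.498 to 5.448 for *Tph1* (luminal ER- minus basal, CTL), -1.606 to 0.674 for *Cck* (luminal ER+ minus basal, CTL) and -1.532 to 0.127 for *Calca* between genotypes in luminal ER+ cells.

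Fewer genes passed with thinned cells, which hold fewer counts: between genotypes 3933 passed in luminal ER- (6570 with all UMIs), 1542 in luminal ER+ (3649) and 1615 in basal cells (3247), counted over fewer tested genes, 3424 for luminal ER+ minus basal in CTL, and 2766, 2508 and 2593 for luminal ER- minus ER+, ER- minus basal and ER+ minus basal in LATS1/2-KO. DESeq2 called 5160, 2596 and 1729 genes between genotypes in the 3 lineages. For *EYFP* (1161 genes) the counts were 133 with DESeq2, 2 with no mouse block, 110 with thinned cells and 648 with classes from clusters. Of the list genes, 14 passed the interaction of luminal ER- and ER+ cells, a test that 18.0% of all 13107 genes tested passed. The count of list genes was 7 with DESeq2, 9 with no mouse block, 5 with thinned cells and 8 with free RNA subtracted. With 1 mouse left out the counts ran from 1968 to 2606 (luminal ER+) and 1636 to 2806 (basal) between genotypes, 2848 to 4308 for luminal ER- minus basal in CTL, 2479 to 5038, 1928 to 4046 and 2000 to 4510 for the 3 lineage contrasts in LATS1/2-KO, and 4 to 12 and 5 to 9 list genes for the interactions with ER+ and basal cells. A lone mouse of a genotype is then assumed to vary like the others.

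The difference in share of cells with a UMI, LATS1/2-KO minus CTL in percentage points, kept its sign throughout. For *Cck* in luminal ER- cells (-75.1) it was -62.281 for at least 2 UMIs and -50.69 with thinned cells. With thinned cells it was -11.983 for *Calca* (-25.7) and -6.258 for *Tph1* (-15.9) in luminal ER+ cells. For *Cpe* in luminal ER- cells (55.7) it was 38.687 for at least 2 UMIs, 26.102 thinned, 45.449 with classes from clusters and 58.065 with the stricter gate, and in basal cells (55.8) 34.721, 28.58 and 47.469 in the first 3 of these.

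The replicate numbers do not pair the mice: deviations of same-numbered libraries correlated at 0.0063, -0.0074 and 0.0345 in luminal ER-, ER+ and basal cells, and with the replicate block 6512, 3507 and 3033 genes passed. 2 mice per genotype, few luminal ER+ knockout cells (162 in replicate 2) and shallow basal CTL cells limit what can be separated. Intervals do not cover the spread between mice.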

Other observations

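Cluster 23, 456 cells found in LATS1/2-KO libraries alone, was given no cell type name. Its leading genes were *Msln*, *Crct1*, *Upk1b*, *Igfbp2* and *Calcb*, and 67.6 and 75.1% of its cells held *EYFP*. *Cpe* stood at 18.2 and 31.7 CPM there, against 193 and 194 CPM in cluster 8 and 232 and 223 CPM in cluster 16, both also of LATS1/2-KO cells, and no *Cck* UMI was counted. The leading genes define the cluster and are no separate result.

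Perivascular cells of LATS1/2-KO replicate 2 held *Cck* at 32.9 CPM, from 9 UMIs in 57 cells, and those of replicate 1 held it at 4.84 CPM, from 1 UMI in 43 cells. Luminal ER+ cells of cluster 7, 50 cells mostly of CTL replicate 2, held *Tph1* at 185 CPM over the libraries together.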
